A study of Caenorhabditis elegans with 10 samples.

Results

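The gas-1 mutant was 1 of 3 respiratory chain missense mutants of the nematode Caenorhabditis elegans that were profiled, and it is described here against the wild type grown the same way. The array of the complex I missense mutant, gas-1(fc21), was set against the array of the wild-type strain N2 that the labels name as the control for missense mutants. These are 2 of the 10 arrays of the series, 1 array for each strain or feeding. The mutation lies in gene K09A9.5. Both strains were raised on plates of the Escherichia coli strain OP50 and then in K12 liquid culture. The animals were mostly young adults, enriched on sucrose, and RNA of 3 biological replicates was pooled on each array. The other 2 missense mutants, grown in the same culture, were mev-1(kn1), a complex II mutant, and isp-1(qm150), a complex III mutant. The isp-1 label gives the sequence name T07C4.7, which belongs to mev-1, so the array was taken as isp-1 by the gene, allele and complex named there. The remaining 6 arrays were animals on HT115 bacteria: an N2 wild type, whose label names neither IPTG nor an empty vector, and 5 feedings of RNAi against 1 complex I subunit each, with 5 mM IPTG. With 1 pooled array per strain, the difference between gas-1 and its wild type has no replicate check and no p-value, and it is given by size. The number of arrays limits the precision.

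Complex I oxidises NADH from the tricarboxylic acid (TCA) cycle and fatty acid oxidation, passes the electrons to ubiquinone and pumps protons across the inner mitochondrial membrane. gas-1 encodes a core subunit of this complex, and nduf-2.2 is its close paralogue. gas-1(fc21) animals are known for their sensitivity to volatile anaesthetics and to oxygen and for a short life. Since a missense allele can leave its mRNA unaltered, the array does not check the label.

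Levels are log2 expression values after quantile normalization of the 10 arrays, and differences are log2 differences from the K12 wild type, on which 1 is a 2-fold difference. A gene was measured where its probe set had a mean level of at least 2.6, the 25th percentile, and 12641 genes were. The deposited medians of the 10 arrays lay between 5.88 and 6.01. Whole animals were labelled, and in such samples fewer cells of a type and less RNA per cell cannot be told apart. The vitellogenin genes, which encode the yolk proteins of the adult intestine, served as the check on stage. vit-2 stood at 14.92 in the wild type and 14.51 in gas-1, vit-6 at 14.97 and 14.84. The median difference over the 5 vitellogenin genes was 0.05, so by the probe set taken for each gene this adult marker differed little between the 2 arrays. However, the 3 probe sets of vit-4 ranged from -0.94 to 0.06. Against the HT115 wild type the median was -0.22, and none of the 5 genes stood higher in gas-1.

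Of 12641 genes, 988 (7.82%) stood at least 1.5-fold higher in gas-1 than in its wild type and 1199 (9.49%) at least 1.5-fold lower, with a median difference of -0.004. The same wild type gave 1137 (8.99%) higher and 1104 (8.73%) lower genes for mev-1, and 815 (6.45%) and 920 (7.28%) for isp-1. These comparisons share the wild-type array, so a value particular to it enters all 3. Large differences in gas-1 lay mostly on the high side. At 2-fold, 457 genes (3.62%) were higher and 356 (2.82%) lower in gas-1. At 4-fold, 137 (1.08%) were higher and 23 (0.182%) lower in gas-1, against 125 (0.989%) and 132 (1.04%) in mev-1 and 80 (0.633%) and 44 (0.348%) in isp-1. The 2 wild types, which differ in bacteria and culture, stood at least as far apart. In the HT115 wild type 2660 genes (21%) were at least 1.5-fold away from the K12 wild type. Against both wild types at once, gas-1 was at least 1.5-fold higher for 745 genes (5.89%) and lower for 734 (5.81%), and against all 9 other arrays for 161 (1.27%) and 85 (0.672%). Among the genes higher in gas-1, 121 had further probe sets, and 123 of these 138 (89.1%) had the same sign. The same held for 221 of 235 (94%) further probe sets of the lower genes. The wild type lay under 2.6 for 36 of the higher genes, and gas-1 for 31 of the lower genes, where the size of the ratio rests on a dim spot.

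**Figure D1:**
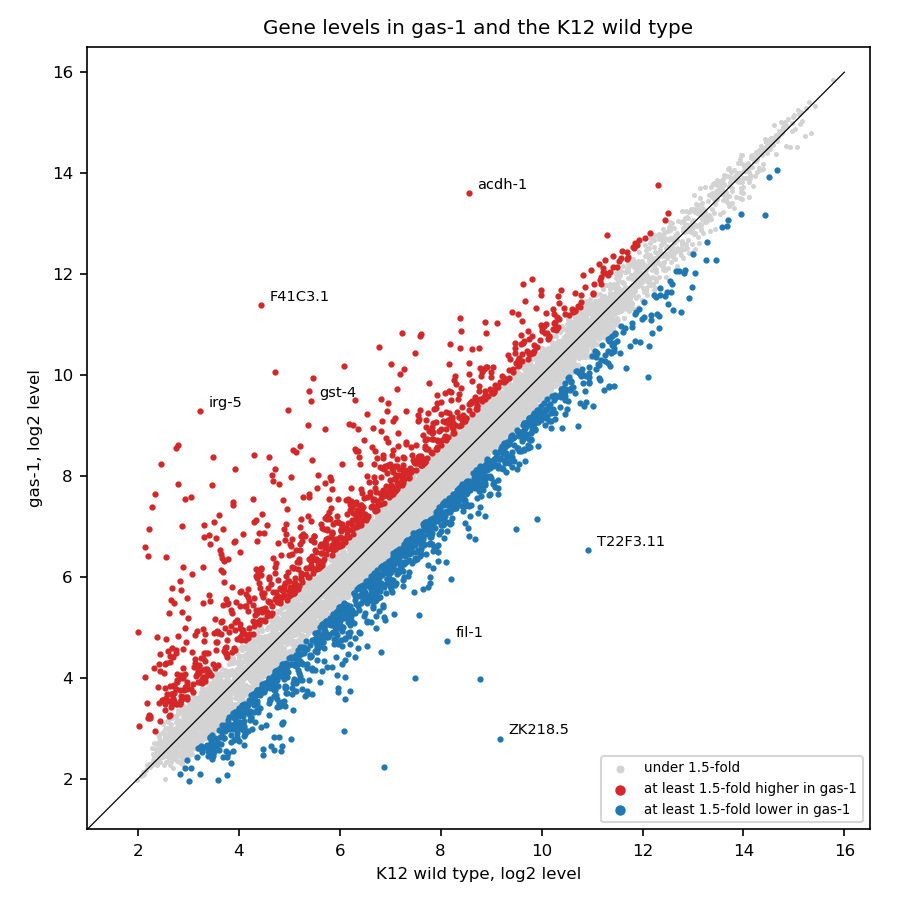
Log2 level of each of 12641 genes in the K12 wild type (horizontal axis) and in gas-1 (vertical axis), 1 array each, with the line of equal levels. Red points, 988, are at least 1.5-fold higher in gas-1 and blue points, 1199, at least 1.5-fold lower; the red points reach farther from the line than the blue ones at low wild-type levels.

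The mutated gene itself stood slightly higher in its own mutant. gas-1 mRNA was at 11.05 in the wild type, 11.44 in gas-1, 11.25 for mev-1 and 11.23 for isp-1, and its 2 probe sets gave differences of 0.39 and 0.54. In the HT115 wild type it was at 10.67, and in the RNAi arrays between 10.72 and 11.78, so the gas-1 array lay inside the range of the others. The paralogue nduf-2.2 was at 9.30 in the wild type, 9.82 in gas-1, 9.39 in mev-1, 9.27 in isp-1, 9.49 in the HT115 wild type and between 9.01 and 9.33 in the RNAi arrays. Its level in gas-1 was the highest of the 10 arrays, 0.52 above the wild type.

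Most of the 12 highest genes were dim in the wild type, some near the filter level of 2.6, and bright in gas-1. F41C3.1, a gene with no assigned name, was at 4.44 in the wild type and 11.38 in gas-1, a 123-fold ratio, against 4.91 for mev-1 and 5.55 for isp-1. irg-5, named as an infection response gene, was at 3.23 in the wild type, 9.29 in gas-1, 2.92 for mev-1 and 3.56 for isp-1. fipr-25, of a family named for induction by fungal infection, was at 2.78, 8.60, 2.71 and 2.80 in the same order. For these 3 genes gas-1 stood apart from the 3 other K12 arrays, and the RNAi arrays lay below it too, at 4.36 to 7.57, 3.51 to 5.95 and 2.73 to 6.06.

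Other genes near the top of the ranking were also high in 1 or both of the other missense mutants. acdh-1 encodes an acyl-CoA dehydrogenase that opens the alternative route of propionate breakdown. It was at 8.56 in the wild type, 13.61 in gas-1, 9.66 for mev-1 and 13.30 for isp-1, a 33.2-fold ratio for gas-1 and 26.7-fold for isp-1. The cytochrome P450 gene cyp-14A1 was at 3.5, 8.37, 3.42 and 7.79 in the same order, again high in gas-1 and isp-1 and not in mev-1. For tbb-6, a beta-tubulin, the order was different, with 5.46 in the wild type, 9.95 in gas-1, 8.34 for mev-1 and 6.29 for isp-1. F15D4.5, a gene with no assigned name, was highest in mev-1, at 12.04, with 10.05 in gas-1, 6.97 for isp-1 and 4.72 in the wild type.

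The rest of the 12 highest were nspe-7 (5.8 above the wild type) and nspe-1 (5.05), of a nematode-specific peptide family, clec-4 (5.78), a C-type lectin, scl-24 (5.30), a secreted SCP-like protein, and K03D3.2 (4.52). nspe-7 was also 4.6 above the wild type for mev-1 and 2.13 above it for isp-1. nspe-1 was 3.92 above it in isp-1. Members of such families can share probe sequence, so a level may hold more than 1 gene. gas-1 had the highest level of the 10 arrays for 11 of the 12 genes, a rank that choosing them by their gas-1 value favours. All 12 were at least 1.5-fold above both wild types, which the choice fixed for the K12 wild type.

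**Figure D2:**
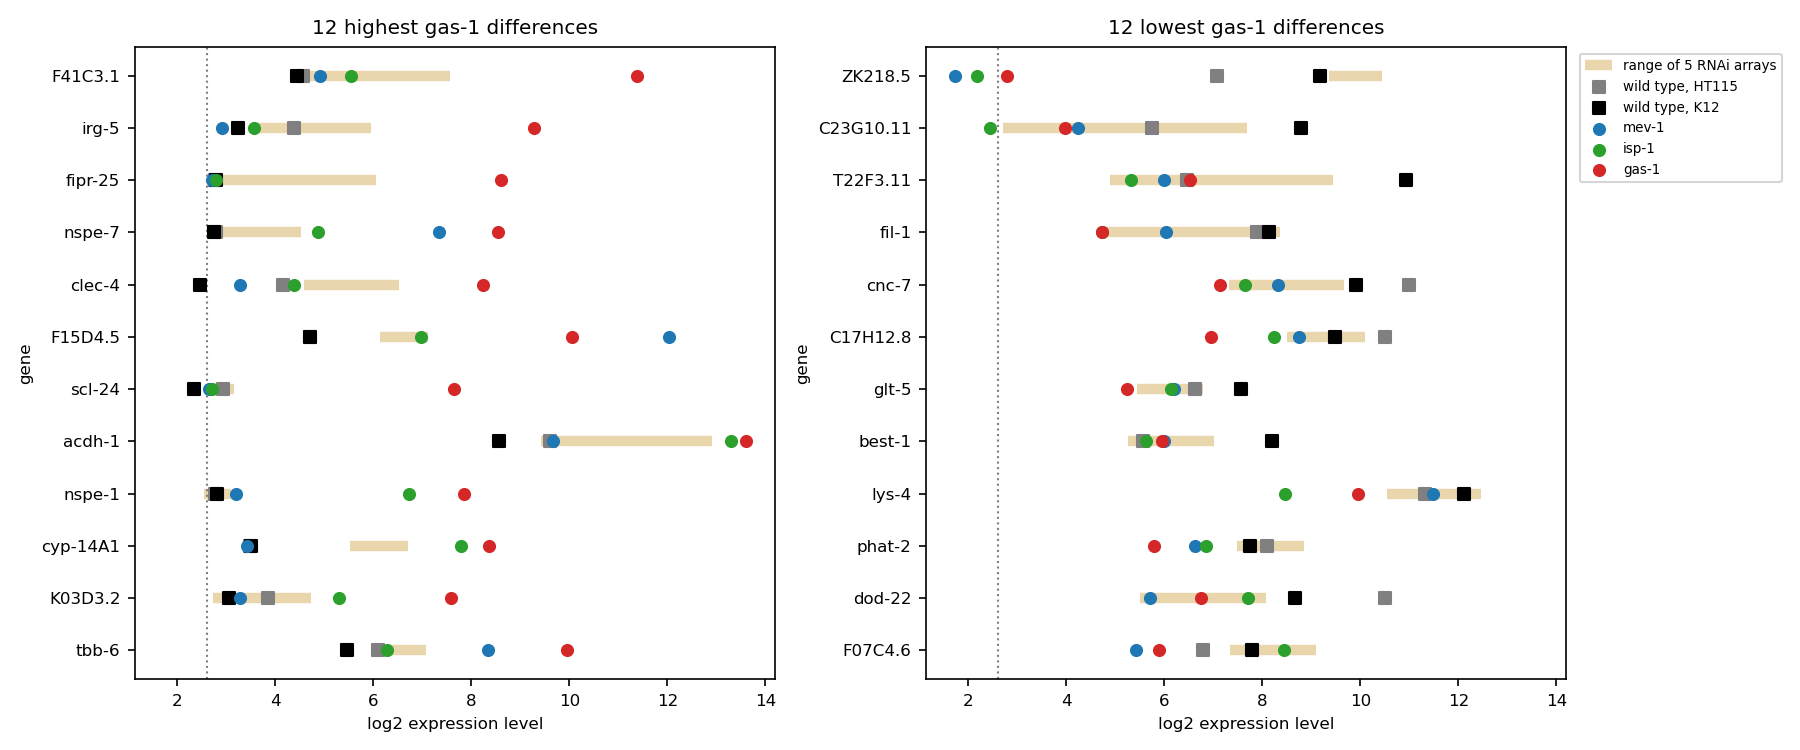
Log2 level (horizontal axis) of the 12 genes with the highest and the 12 with the lowest difference of gas-1 from the K12 wild type, among genes whose higher value reached the median of all levels. Points are single arrays, the pale bar spans the 5 RNAi arrays, and the dotted line is the filter level of 2.6; gas-1 is the rightmost point for 11 of the 12 highest genes and the leftmost for 4 of the 12 lowest.

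The lowest genes in gas-1 were mostly low in the other missense mutants as well. ZK218.5, a gene with no assigned name, was at 9.18 in the wild type, 2.79 in gas-1, 1.73 for mev-1 and 2.17 for isp-1, and in all 6 HT115 arrays it lay at 7.07 or above. T22F3.11 was at 10.93 in the wild type, 6.52 in gas-1, 6.0 for mev-1 and 5.32 for isp-1, and the HT115 wild type, at 6.46, was as low as the mutants. best-1, a bestrophin-type chloride channel gene, had the same form, with 8.20 in the wild type, 5.95 in gas-1 and 5.57 in the HT115 wild type. The K12 wild type held the highest level of the 10 arrays for 4 of the 12 lowest genes.

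fil-1, a fasting-induced lipase, was at 8.13 in the wild type, 4.73 in gas-1, 6.03 for mev-1 and 4.72 for isp-1. Innate defence genes were also among the lowest. cnc-7, an antimicrobial caenacin, was at 9.91 in the wild type, 7.14 in gas-1, 8.32 for mev-1 and 7.65 for isp-1. The lysozyme lys-4 was at 12.11, 9.96, 11.48 and 8.46 in the same order, so isp-1 was lower still.

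For 4 of the 12 lowest genes gas-1 had the lowest level of the 10 arrays. C17H12.8 was at 9.48 in the wild type and 6.95 in gas-1, with 8.75 for mev-1 and 8.25 for isp-1. glt-5, of the glutamate transporter family, was at 7.56, 5.23, 6.20 and 6.14 in the same order, and phat-2, which is expressed in the pharyngeal glands, at 7.75, 5.8, 6.63 and 6.84. cnc-7 was the other. The remaining genes of the 12 were C23G10.11 (-4.81), dod-22 (-1.93), named as a gene downstream of DAF-16, and F07C4.6 (-1.90). Of the 12 lowest genes, 10 were at least 1.5-fold below both wild types, a distance that the choice of genes fixed for the K12 wild type alone.

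Which of these differences set gas-1 apart from the other missense mutants was addressed in 2 ways. By size, 318 genes (2.52%) were at least 1.5-fold above the wild type, mev-1 and isp-1 at once, and 221 (1.75%) below all 3. The corresponding numbers were 589 (4.66%) and 324 (2.56%) for mev-1 and 185 (1.46%) and 163 (1.29%) for isp-1, so gas-1 stood between the other 2. By test, limma fitted 5 groups over the 10 arrays and compared gas-1 with the mean of mev-1 and isp-1, two-sided with Benjamini-Hochberg adjustment. For the single gas-1 array the spread of the other groups was assumed, and that spread came from the 5 RNAi arrays, which target different genes, and from mev-1 against isp-1.

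limma called 20 genes (0.158%) at an adjusted p of 0.05, 18 of them higher in gas-1 (0.142%) and 2 lower (0.0158%). At an unadjusted p of 0.05 it counted 455 of 12641 genes. This was a smaller share than the 5% of unchanged genes that reached that p on simulated data. The filter used the mean of all 10 arrays, gas-1 included. Of the 18 higher genes, 8 passed it only through their gas-1 value, with the mean of the 9 other arrays under 2.6, and so had to differ. Of the 2 lower genes, T28A11.18 passed only through mev-1 and isp-1. These 9 calls are given as levels alone and count as no support. gst-14, a glutathione S-transferase, was at 6.40 in gas-1 and at 2.2, 2.17, 2.21 and 2.21 in the K12 wild type, mev-1, isp-1 and the HT115 wild type. clec-43, a C-type lectin, was at 4.80 in gas-1, ugt-27, a UDP-glucuronosyltransferase, at 4.47, twk-45, a potassium channel of the TWK family, at 4.13, F58E2.2 at 4.26 and pgp-8, a P-glycoprotein, at 4.09. Both other missense mutants lay under 3 for each of these. T28A11.18 was at 2.28 in gas-1, 2.31 in the K12 wild type, 4.25 for mev-1 and 4.15 for isp-1.

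Without the arrays where they were high, 10 higher genes and T28A11.2 still passed the filter. scl-24 differed from the other missense mutants by 4.97 ± 0.23 (SE; limma adjusted p = 6.06e-04) and was the highest of the 10 arrays. The mean of its 9 other arrays, 2.72, was close to the filter level. Y39D8A.1 differed by 3.04, Y7A5A.3 by 2.86 and T24A6.7 by 1.65. T28A11.2 (-3.61) was lower in gas-1 than in the other missense mutants. It was under 2.6 in gas-1, with a difference of -1.19 from the K12 wild type, while mev-1 and isp-1 were above that wild type. T20D4.12 (-5.46, limma adjusted p = 0.071), F40D4.13 (-3.11, 0.071) and C17B7.5 (-0.99, 0.082) did not pass. From the K12 wild type gas-1 differed by -0.52, 0.93 and -0.01 for these genes, in the same order. Both mev-1 and isp-1 were above that wild type for each of them.

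Most of these calls were dim genes, and 2 of the 20 reached the median of all levels, 7.56, in either group. For 16 of the 18 genes higher in gas-1 the mean of mev-1 and isp-1 lay under 3, and 10 of the 18 had both sides above the filter level. With the filter raised to the 50th percentile limma called 0 genes, with 215 of 8436 at an unadjusted p of 0.05. Without mev-1 the test called 22 higher and 15 lower genes, and without isp-1 48 and 43. F41C3.1 (limma adjusted p = 0.30), irg-5 (0.13) and fipr-25 (0.39) did not pass, although gas-1 exceeded each of the 9 other arrays.

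Some bright genes stood on opposite sides of the wild type in gas-1 and in both other missense mutants. F21C10.9 was at 8.87 in the wild type, 11.05 in gas-1, 4.27 for mev-1 and 5.60 for isp-1. spp-11, a saposin-like protein, was at 6.84, 9.08, 2.60 and 4.77 in the same order, and oac-39, of the O-acyltransferase family, at 6.27, 9.01, 2.72 and 4.15. Y47H9C.1 was at 7.14, 9.73, 4.38 and 4.62, and it passed the test against the other missense mutants (5.22, limma adjusted p = 0.019). For these 4 genes gas-1 was the highest of the 10 arrays, and the HT115 wild type, at 6.05, 2.55, 3.87 and 4.31, was below the K12 wild type.

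In the other direction, spp-18 was at 12.77 in the wild type, 11.25 in gas-1, 12.49 for mev-1 and 12.53 for isp-1, so only gas-1 of the 4 K12 arrays was low. sups-1 (-1.34 against 0.10 and 0.07) and T11B7.5 (-1.09 against 0.33 and 0.37) were of the same kind and were the lowest of the 10 arrays in gas-1. clec-76, a C-type lectin, was at -1.34 in gas-1, -0.06 for mev-1 and 0.05 for isp-1, but at 6.96 in the HT115 wild type it was lower than in gas-1, at 7.63. Smaller differences belonged to irg-3 (-0.81 against 1.34 and 0.47), grd-10 (-0.75 against 0.61 and 0.60), a hedgehog-related gene, and T20D4.11 (-0.69 against 2.07 and 1.16). For grd-10 and T20D4.11 the direction depended on the control, since gas-1, at 8.47 and 7.54, was above the HT115 wild type, at 7.12 and 6.94.

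The genes of the complex that is mutated stood slightly higher together. All 33 measured complex I subunit genes were above the wild type in gas-1, against 49.4% of all genes (46.4% for mev-1 and 54.9% for isp-1), with a median difference of 0.39, against 0.06 for mev-1 and 0.20 for isp-1. The range in gas-1 was 0.06 to 0.61, and 2 of the 33 (6.06%, against 7.82% of all genes) reached 1.5-fold, so the differences were small and in 1 direction. ndub-3 was at 10.65 in the wild type, 11.26 in gas-1, 10.81 for mev-1 and 11.16 for isp-1. nduf-6 was at 11.02, 11.61, 11.40 and 11.40 in the same order, and lpd-5 at 10.89, 11.46, 11.15 and 11.44. nduv-2, a subunit of the NADH-oxidising module, was 0.56 above the wild type in gas-1, 0.22 for mev-1 and 0.32 for isp-1. gas-1 exceeded both other missense mutants for 26 of the 33 genes, which it did for 30.5% of all genes, and was among the 2 highest of the 10 arrays for 20. Some RNAi arrays were as high: the complex I median of an RNAi array lay between -0.13 and 0.44 against the HT115 wild type.

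The other complexes followed. Complex III subunits had a median of 0.46 in gas-1, 0.05 for mev-1 and 0.18 for isp-1, with the core proteins ucr-2.1 at 0.69 and ucr-2.2 at 0.74. Complex IV had 7 of 7 genes above the wild type and a median of 0.33, against 0.00 and 0.21, and gas-1 held the highest level of the 10 arrays for 5 of them, among them cox-5B, cox-6B and cox-7C. ATP synthase had 13 of 14 genes above the wild type and a median of 0.23, against -0.04 and 0.07. Complex II had 4 of 5 genes above the wild type and a median of 0.45, against -0.09 for mev-1 and 0.33 for isp-1. Within it 1 pair of paralogues was split. sdha-1 was at 9.06 in the wild type and 9.66 in gas-1, while its paralogue sdha-2 was at 9.88 and 9.55 and was the lowest of the 10 arrays in gas-1. Over the 68 subunit genes of the 5 complexes, 65 were above the wild type in gas-1, 38 for mev-1 and 61 for isp-1, with medians of 0.35, 0.03 and 0.18.

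**Figure D3:**
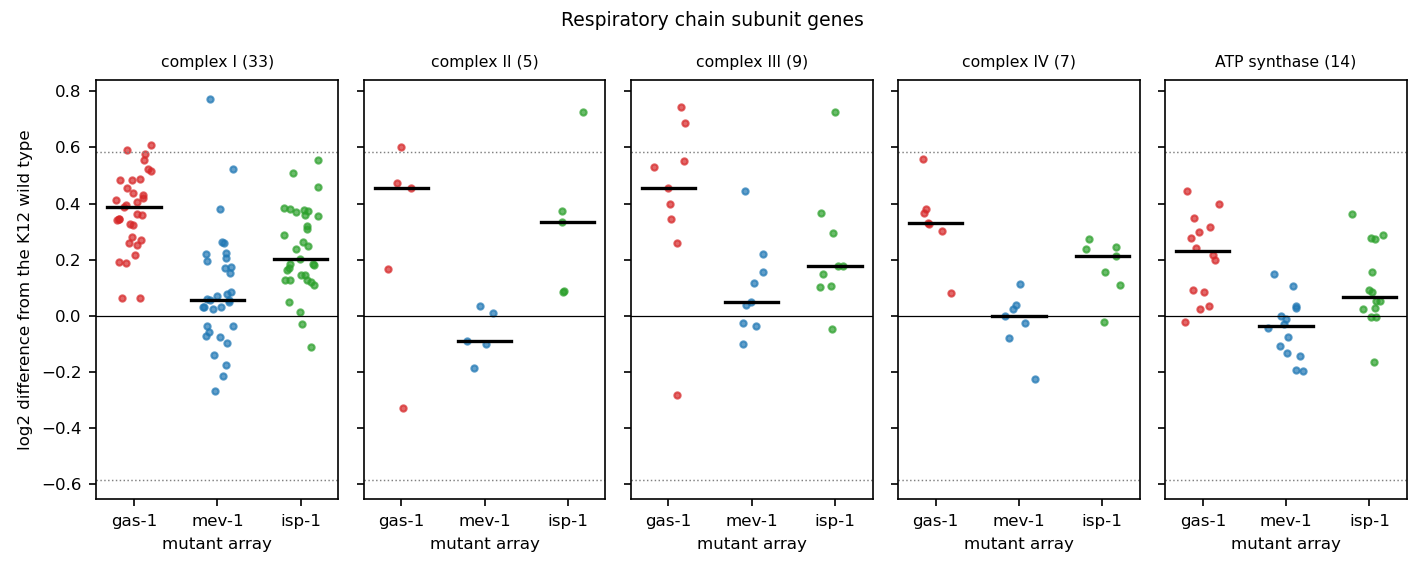
Log2 difference from the K12 wild type (vertical axis) of the subunit genes of the 5 respiratory chain complexes in the arrays of 3 missense mutants (gas-1, mev-1, isp-1), 1 point per gene with the number of genes in parentheses. Bars are medians and dotted lines 1.5-fold; the complex I medians are 0.39, 0.06 and 0.20 and most points lie within 1.5-fold.

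Around the respiratory chain, genes of mitochondrial protein handling were also higher. Of 16 genes of the mitochondrial unfolded protein response, 15 were above the wild type in gas-1, with a median of 0.42, against 0.03 for mev-1 and 0.44 for isp-1. In gas-1 5 of the 16 (31.2%, against 7.82% of all genes) were at least 1.5-fold higher. timm-23, the channel of the inner membrane import machinery, was at 10.00 in the wild type, 11.69 in gas-1, 10.40 for mev-1 and 11.02 for isp-1, the highest of the 10 arrays in gas-1. hsp-6, the mitochondrial Hsp70, was at 10.25, 11.21, 10.52 and 11.30 in the same order, so gas-1 and isp-1 were alike. dnj-10, a mitochondrial DnaJ protein, was 0.74 above the wild type in gas-1 and 0.62 in isp-1, and ubl-5, a ubiquitin-like factor of this response, was 0.53 and 0.04 above it. ubl-5 was higher still in the HT115 wild type, at 10.70 against 10.06 in gas-1.

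The mitochondrial ribosomal proteins had a median of 0.16, with 49 of 57 above the wild type, and mrpl-48 (0.69) and mrps-14 (0.67) led them. Against the HT115 wild type their median was -0.03. Ubiquinone synthesis and the electron transfer flavoprotein, which both feed the chain, had 8 of 9 genes above the wild type. Among them coq-1, which makes the polyprenyl tail of ubiquinone, was at 8.22 in the wild type, 8.97 in gas-1, 7.71 for mev-1 and 8.48 for isp-1. The kinase-like coq-8 was 0.67 above the wild type in gas-1 and 0.77 in isp-1. Assembly factors of complex I were represented by 2 genes, nuaf-1 (0.34) and nuaf-3 (0.04). The endoplasmic reticulum chaperones differed from the mitochondrial ones: their median was -0.01 and none of 16 reached 1.5-fold in either direction.

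The route of propionate breakdown that acdh-1 opens was high in gas-1 and in isp-1. ech-6, an enoyl-CoA hydratase, was at 10.81 in the wild type, 11.98 in gas-1, 11.14 for mev-1 and 12.01 for isp-1. hach-1, a hydroxyacyl-CoA hydrolase, was at 9.05, 10.16, 9.03 and 9.98 in the same order, and hphd-1, the dehydrogenase of the next step, at 10.33, 11.56, 9.95 and 11.41. alh-8, the last enzyme of the route, was 0.39 above the wild type in gas-1. The genes of the canonical, vitamin B12-dependent route, named here after their values were seen, stood closer to the wild type, with pcca-1 at 0.16, pccb-1 at 0.19, mce-1 at -0.08 and mmcm-1 at 0.33. Over both routes, 4 of 11 genes (36.4%, against 7.82% of all genes) were at least 1.5-fold higher and none 1.5-fold lower, with a median of 0.33. The 9 genes of branched-chain amino acid breakdown, a source of propionate, were all above the wild type, with a median of 0.29.

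Fat handling was mixed. All 10 lipase genes were below the wild type in gas-1, 6 of them (60%, against 9.49% of all genes) at least 1.5-fold, with a median of -0.87, against -0.22 for mev-1 and -0.37 for isp-1. The lysosomal lipases lipl-2 and lipl-5 had the lowest levels of the 10 arrays in gas-1. lipl-2 was at 11.34 in the wild type, 9.78 in gas-1, 11.03 for mev-1 and 10.82 for isp-1, and lipl-5 at 11.25, 10.28, 10.64 and 11.25. Against the HT115 wild type, however, the lipase median was -0.10 and 3 of the 10 genes stood higher in gas-1, so most of this difference depended on which wild type was the control. Genes of fatty acid synthesis, elongation and desaturation had a median of -0.35, with 14 of 20 below the wild type and 5 (25%, against 9.49% of all genes) at least 1.5-fold. The elongase elo-2 (-0.84) and the desaturase fat-3 (-0.65) were low and the desaturase fat-1 (0.62) was high. Against the HT115 wild type the median of this list was 0.02.

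The acyl-CoA synthetase gene acs-2, which activates fatty acids for mitochondrial oxidation, was at 11.85 in the wild type and 12.62 in gas-1, but at 10.83 for mev-1 and 10.81 for isp-1. It was the highest of the 10 arrays in gas-1. Fatty acid beta-oxidation as a list had 27 of 40 genes above the wild type and a median of 0.14. Of these genes 7 (17.5%, against 7.82% of all genes) were at least 1.5-fold higher, and acdh-11 was 0.94 above the wild type.

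Central carbon metabolism differed less. Of 31 genes of pyruvate dehydrogenase and the TCA cycle, 24 were above the wild type, with a median of 0.17, led by aconitase aco-2 at 0.72 and the complex II subunit sdha-1 at 0.60. The median was 0.01 for mev-1 and 0.11 for isp-1. Glycolysis had a median of 0.04, but ldh-1, the lactate dehydrogenase that regenerates NAD from NADH, was at 11.01 in the wild type, 11.62 in gas-1, 10.74 for mev-1 and 11.37 for isp-1. The highest RNAi array was also at 11.62 for ldh-1. pck-1, a phosphoenolpyruvate carboxykinase, was at 12.05, 12.72, 11.09 and 12.18 in the K12 arrays, in the same order, and was the highest of the 10 arrays in gas-1. All 7 genes of the pentose phosphate pathway were above the wild type, with a median of 0.31, and the isp-1 median was 0.36. The methionine cycle and transsulfuration list lay on the other side with 10 of 13 genes below the wild type and a median of -0.23, but one of 0.11 against the HT115 wild type. Its members split: the methionine synthase metr-1 was at -0.65 and the S-adenosylmethionine synthetase sams-5 at -1.3, while the cystathionine lyase cth-1 was at 1.70.

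The detoxification enzymes included the list with the highest median. Of 55 UDP-glucuronosyltransferase genes, which attach sugars to foreign and lipophilic compounds, 44 were above the wild type, 25 (45.5%, against 7.82% of all genes) at least 1.5-fold, and 4 (7.27%) were at least 1.5-fold below it. The median was 0.54 in gas-1, 0.20 for mev-1 and 0.24 for isp-1, and 18 and 15 genes reached 1.5-fold in the other mutants. ugt-62 was at 7.01 in the wild type, 10.22 in gas-1, 7.55 in mev-1, 8.93 in isp-1 and between 9.33 and 10.41 in the RNAi arrays. ugt-61 was at 4.66, 8.01, 6.73 and 7.66 in the K12 arrays, in the same order. ugt-2, at 6.53, 9.23, 7.48 and 7.95, and ugt-21, at 6.19, 9.02, 4.17 and 7.09, were highest of the 10 arrays in gas-1, and ugt-21 was low in mev-1. The gas-1 array was the highest of the 10 for 14 of the 55 genes (8.97% of all genes). Against the HT115 wild type the median was 0.35, with 43 of 55 genes higher.

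Among 35 glutathione S-transferases, which conjugate glutathione to electrophiles, 12 (34.3%) were at least 1.5-fold higher and 3 (8.57%) lower, against 7.82% and 9.49% of all genes. In isp-1 10 (28.6%) were higher and 1 (2.86%) lower, against 6.45% and 7.28% of all genes. In mev-1 the numbers were 6 (17.1%) and 5 (14.3%), against 8.99% and 8.73%. The median was 0.29 in gas-1, -0.12 for mev-1 and 0.32 for isp-1. gst-4, a widely used reporter of the SKN-1 stress response, was at 5.44 in the wild type, 9.48 in gas-1, 7.66 in mev-1, 7.78 in isp-1 and 7.28 in the HT115 wild type. The K12 wild type was the lowest of the 10 arrays. The RNAi arrays lay between 6.18 and 8.36, so mev-1 and isp-1 were inside their range and gas-1 was above it. gst-24 was at 6.48, 8.71, 7.53 and 7.69 in the K12 arrays. gst-21 differed in kind, with 5.45 in the wild type, 8.30 in gas-1, 5.06 for mev-1 and 5.22 for isp-1. gst-22 was lower, at 9.03 in the wild type and 7.84 in gas-1. skn-1 itself, the transcription factor of this response, was at 9.73 in the wild type, 10.32 in gas-1, 9.66 for mev-1 and 9.76 for isp-1, although its 3 probe sets ranged from 0.02 to 0.59.

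The cytochrome P450 genes, which oxidise foreign and endogenous compounds, spread both ways, with 19 of 51 (37.3%) at least 1.5-fold higher and 12 (23.5%) lower, against 7.82% and 9.49% of all genes. cyp-33C8 was at 6.08 in the wild type, 10.17 in gas-1, 6.83 for mev-1 and 8.61 for isp-1, and cyp-13B1 at 6.94, 9.29, 7.75 and 10.16. cyp-34A2 was 2.18 above the wild type in gas-1. The gas-1 array was the highest of the 10 for 14 P450 genes. Of the transporters that export conjugates, mrp-2 was at 5.55, 7.77, 6.49 and 6.12, and 6 of 28 ABC transporter genes (21.4%, against 7.82% of all genes) were at least 1.5-fold higher with none lower. Nuclear hormone receptors are ligand-regulated transcription factors that include regulators of such enzymes. Of 161 measured, 29 (18%) were at least 1.5-fold higher in gas-1 and 10 (6.21%) lower, against 7.82% and 9.49% of all genes. For mev-1 the numbers were 30 (18.6%) and 7 (4.35%), against 8.99% and 8.73% of all genes. For isp-1 they were 16 (9.94%) and 9 (5.59%), against 6.45% and 7.28%. nhr-61 was at 7.20 in the wild type, 10.01 in gas-1, 7.48 for mev-1 and 7.87 for isp-1.

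**Figure D4:**
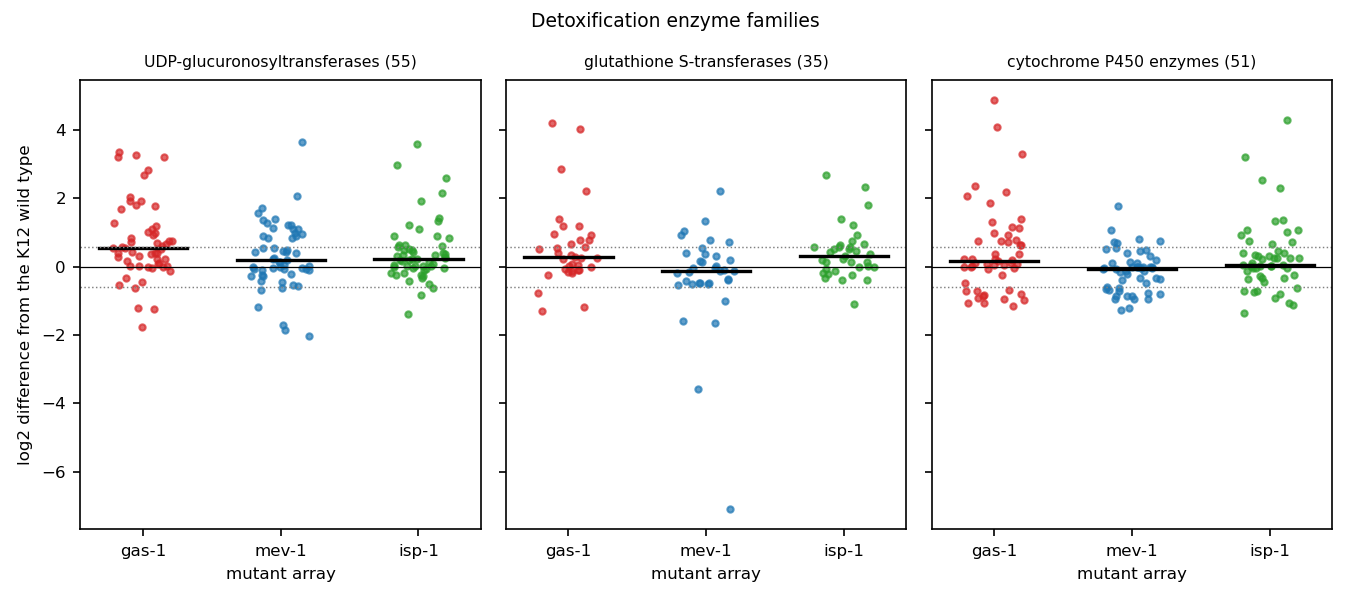
Log2 difference from the K12 wild type (vertical axis) of 3 detoxification enzyme families in the arrays of 3 missense mutants (gas-1, mev-1, isp-1), 1 point per gene with the number of genes in parentheses. Bars are medians and dotted lines 1.5-fold; the UDP-glucuronosyltransferase median is 0.54 in gas-1 and 0.20 and 0.24 in the other mutants, and each family has genes far above 1.5-fold in gas-1.

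Stress chaperones of the cytosol were higher in part. Of 13 genes, 6 (46.2%) were at least 1.5-fold higher and 2 (15.4%) lower, against 7.82% and 9.49% of all genes. hsp-16.2, a small heat shock protein under HSF-1 control, was at 4.67 in the wild type and 7.90 in gas-1, the highest of the 10 arrays, a difference of 3.23 against 1.87 for mev-1 and 1.44 for isp-1. hsp-12.6, a small heat shock protein known as a DAF-16 target, was at 8.76, 10.53, 5.79 and 9.02 in the same order. hsp-12.2 was at 11.95 and 10.66 and lowest in gas-1. The cadmium-responsive genes cdr-2 and cdr-4 were at 2.76 and 2.86 above the wild type in gas-1, 0.61 and 0.82 in mev-1, and 2.67 and 1.94 in isp-1. The metallothioneins mtl-1 (-0.26) and mtl-2 (-0.48) were below it.

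The superoxide dismutase and catalase list had a median of 0.19 in gas-1, with sod-1 at 0.19, sod-2 at 0.18 and ctl-2 at 0.10. sod-3 and sod-5, both known DAF-16 targets and named here after their values were seen, were at 0.34 and 1.45 in gas-1 and at 3.30 and 4.13 in isp-1. Of the thioredoxin system, trx-2 was 0.92 and trxr-1 0.83 above the wild type, each the highest of the 10 arrays, while the glutathione peroxidase gpx-3 was at 9.14 in the wild type and 7.76 in gas-1, the lowest. Genes of the HIF-1 pathway and of hydrogen sulfide handling had a median of 0.19 in gas-1 and -0.59 in mev-1. Among them sqrd-1, which oxidises sulfide, was 0.64 above the wild type in gas-1 and -0.94 in mev-1.

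Defence genes lay on both sides of the wild type. Of 94 measured C-type lectins, 22 (23.4%) were at least 1.5-fold higher and 21 (22.3%) lower, against 7.82% and 9.49% of all genes, with a median of -0.03. clec-47 was at 5.22 in the wild type, 8.59 in gas-1, 5.96 for mev-1 and 5.97 for isp-1. clec-52 was at 8.41, 10.87, 8.71 and 8.59 in the same order, and the highest RNAi arrays, at 8.49 and 10.67, came near both. clec-258 was at 6.95, 9.45, 4.47 and 7.25. Among 15 epidermal antimicrobial peptides, cnc-3 was 1.62 and cnc-8 1.11 above the wild type, while cnc-7 was at -2.77 and nlp-28 at -1.19. Lysozymes and saposin-like proteins had 5 of 30 genes (16.7%) higher and 7 (23.3%) lower at 1.5-fold, against the same shares of all genes.

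Hedgehog-related, patched-related and moulting genes were mostly lower in gas-1 than in its wild type. The epidermal antimicrobial peptides did not share this, with 10 of 15 genes above the wild type. Of 65 hedgehog-related and patched-related genes, which in nematodes act in the epidermis and in cuticle renewal, 54 were below the wild type and 25 (38.5%, against 9.49% of all genes) at least 1.5-fold, while none was 1.5-fold higher. The median was -0.42 in gas-1, -0.16 for mev-1 and -0.20 for isp-1. It was -0.15 against the HT115 wild type, and 29 of the 65 genes stood higher in gas-1. grl-10 was at 7.65 in the wild type, 6.65 in gas-1, 6.70 for mev-1 and 7.14 for isp-1, and ptr-25 differed by -0.98. Both were the lowest of the 10 arrays in gas-1. grl-20 and grl-23 were at -1.08 and -1.54 in gas-1, but the HT115 wild type was lower than gas-1 for both, at 8.5 against 11.21 and 8.05 against 10.13, and mev-1 was at 5.13 and 4.48. Moulting genes had a median of -0.29, with 6 of 20 (30%, against 9.49% of all genes) at least 1.5-fold lower. Among them were mlt-10 (-1.18), nas-37 (-0.89), a metalloprotease of cuticle shedding, and noah-2 (-1.03). elt-1, an epidermal GATA factor taken from the embryonic list, was at 7.68 and 7.08 and lowest in gas-1.

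Cuticle collagens that shape the body had 6 of 17 genes (35.3%) at least 1.5-fold lower and 3 (17.6%) higher, against 9.49% and 7.82% of all genes. Their median was -0.24, against 0.06 for mev-1 and 0.07 for isp-1. gas-1 was below both for 12 of the 17 and above both for none. dpy-7 was at 9.73 in the wild type, 8.62 in gas-1, 9.40 for mev-1 and 9.14 for isp-1, and dpy-2 at 9.05, 7.87, 8.74 and 8.64, both the lowest of the 10 arrays. dpy-17 was at 12.97, 11.74, 12.18 and 12.40. With the HT115 wild type as the control the median of this list was 0.85, so its sign depended on the control. Of 113 numbered collagens, 14 (12.4%) were higher and 27 (23.9%) lower at 1.5-fold, against 7.82% and 9.49% of all genes. Their median was -0.06, against -0.27 in mev-1. col-101 (1.84) and col-74 (-1.73) were at the ends.

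Markers of the pharynx stood lower. Of 14 genes listed as pharyngeal muscle genes, 13 were below the wild type and 9 (64.3%, against 9.49% of all genes) at least 1.5-fold. The name of the list covers muscle proteins and also phat genes, which belong to the pharyngeal glands, and these 2 groups do not hold all 14 genes. The 6 contractile proteins had a median of -0.87 in gas-1, -0.33 for mev-1 and -0.61 for isp-1, and tnt-4, a troponin T, was at 10.67 in the wild type, 9.65 in gas-1, 10.21 for mev-1 and 9.86 for isp-1. The 6 phat genes had a median of -0.98, -0.50 and -0.46. In gas-1 5 of these 6 were below the wild type, 4 of them at least 1.5-fold, with phat-4 at -1.68 and phat-5 at -1.23. The other phat gene was 0.63 above the wild type, past 1.5-fold. Against the HT115 wild type the list median was -0.47, with 3 of 14 genes higher in gas-1. Body wall muscle genes had 20 of 21 below the wild type and a median of -0.34, against -0.28 and -0.22, with the myosin myo-3 at -0.73 and the attachment protein unc-97 at -0.62.

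Other tissues and stages differed less. The intestine list had a median of 0.02, the neuron list of -0.19, the oocyte and eggshell list of -0.13 and the embryonic list of -0.13. The neuron median was 0.30 against the HT115 wild type, so its sign depended on the control. The sperm list lay at 0.00 in gas-1, against 0.57 for mev-1 and -0.37 for isp-1, so gas-1 was the nearest of the 3 to its wild type, but it was 0.68 above the HT115 wild type. unc-25, the GABA-synthesising enzyme of motor neurons, was at -0.96 in gas-1, -0.92 for mev-1 and -0.96 for isp-1. For this gene the K12 wild type alone was high, at 8.73, against 7.80 in the HT115 wild type and 7.79 to 8.29 in the RNAi arrays. The neuropeptide list had a median of 0.03 against the K12 wild type and of 0.97 against the HT115 wild type, and nlp-51 (1.12) was the highest of the 10 arrays in gas-1. Insulin-like peptides had 6 of 22 genes (27.3%, against 7.82% of all genes) at least 1.5-fold higher in gas-1. The number was also 6 for mev-1 and 6 for isp-1, against 8.99% and 6.45% of all genes. ins-35 was at 1.36 in gas-1, 1.52 for mev-1 and 2.57 for isp-1, and ins-7 at 0.90, 0.22 and -1.85. The part of stage and tissue composition in the other differences was not tested.

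**Figure D5:**
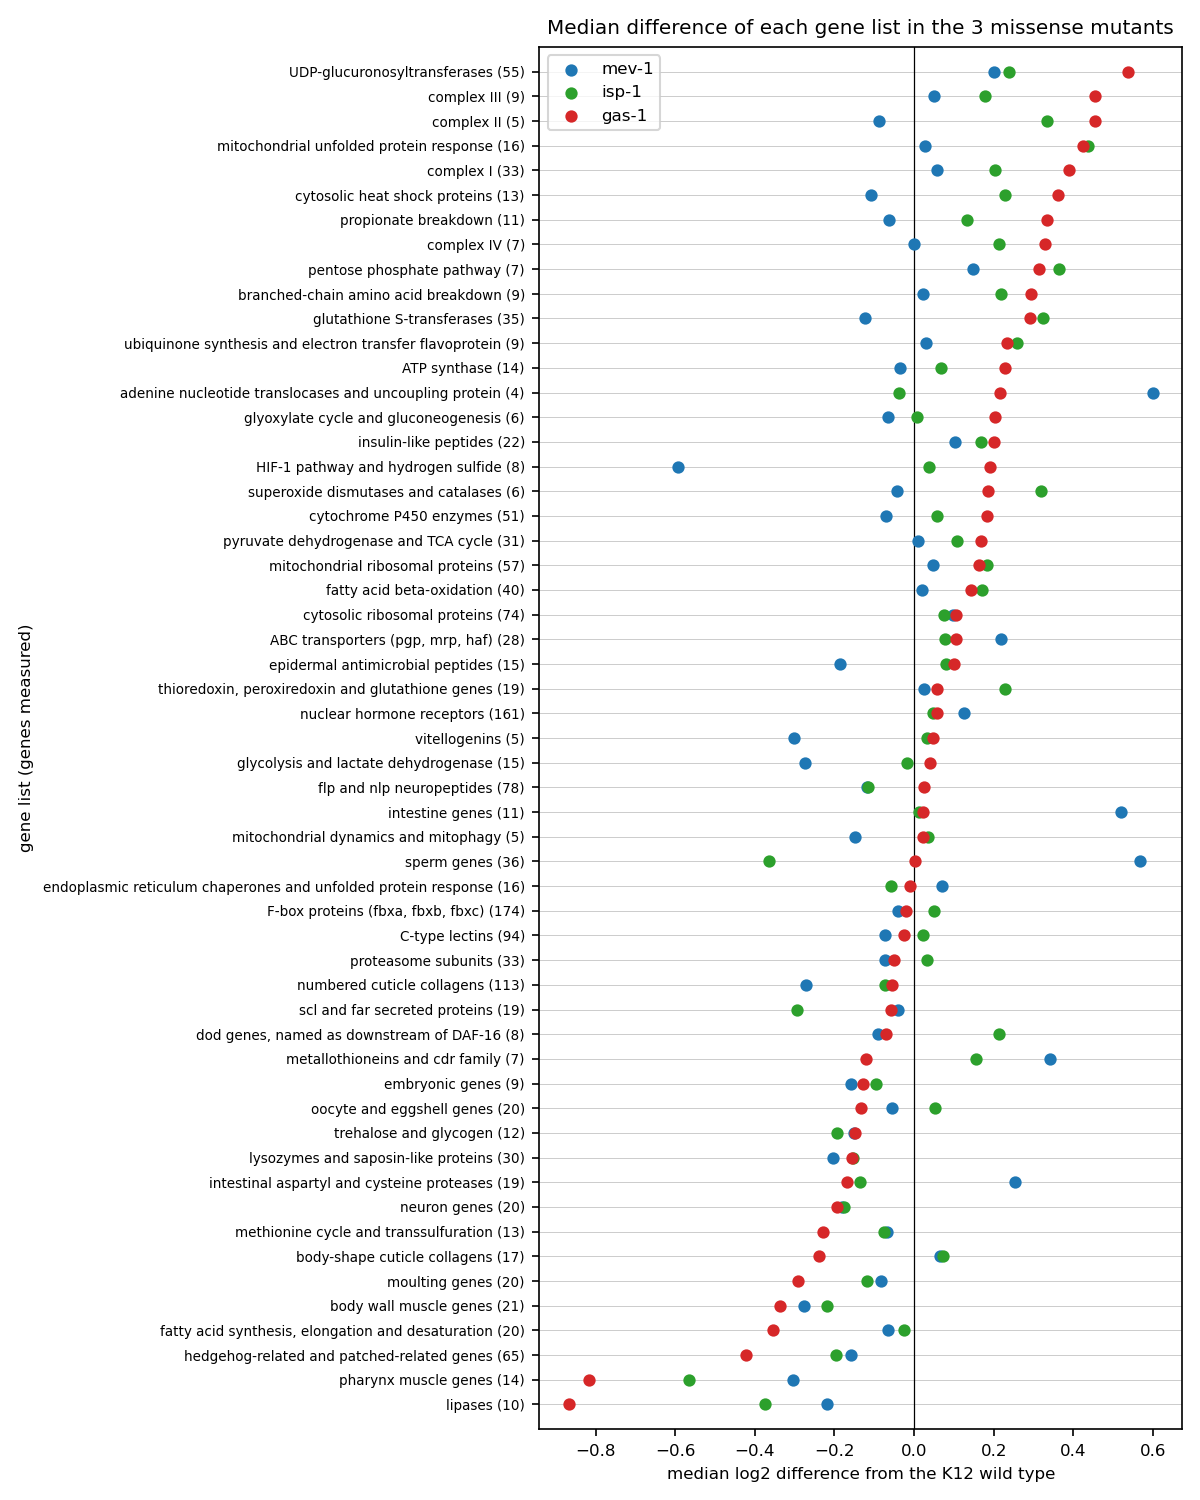
Median log2 difference from the K12 wild type (horizontal axis) of 55 gene lists in the arrays of 3 missense mutants (gas-1, mev-1, isp-1), with the number of genes measured in parentheses, ordered by gas-1. Points are medians over the genes of a list in 1 array; gas-1 runs from -0.87 for the lipases to 0.54 for the UDP-glucuronosyltransferases, and is the highest of the 3 mutants for 21 lists and the lowest for 12.

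The cytosolic ribosomal proteins had a median of 0.10 in gas-1, 0.10 for mev-1 and 0.07 for isp-1, and none of 74 reached 1.5-fold. In gas-1 69 of the 74 were above the wild type, against 49.4% of all genes, and 27 were the highest of the 10 arrays, against 8.97% of all genes. For mev-1 65 were above the wild type, for isp-1 66. The proteasome subunits had a median of -0.05, and none of 33 reached 1.5-fold. Over all 55 lists, the gas-1 median was the highest of the 3 missense mutants for 21 lists and the lowest for 12. The mev-1 median was the highest for 14 and the lowest for 34, and that of isp-1 for 20 and 9.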

How the data were processed

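The authors deposited 1 log2 value for each of 22625 probe sets of the Affymetrix C. elegans array and each of 10 arrays, with values from 1.43 to 16.01; the log2 scale was read from this range, and their summary method and normalization are not given in the sources that were at hand. Per the labels, RNA of 3 biological replicates was combined for each array.

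Because array medians differed by 0.13, over a limit of 0.1, quantile normalization over all 10 arrays was applied. After 77 controls, 20766 probe sets had 1 gene symbol; 887 with several and 895 with none were left out. By Entrez identifier, 20701 matched the RefSeq table of assembly WBcel235, from which only names were taken. Probe sets averaging under the 25th percentile, 2.6, were left out (16911 of all kinds and 15803 with 1 symbol stayed), and a gene was given by its probe set of highest mean. Samples were grouped by their labels.

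gas-1 minus its wild type was described by size, with thresholds of 1.5-fold and 2-fold. The test of gas-1 against the mean of mev-1 and isp-1 used limma 3.58.1 in R 4.3.3, with 5 groups, 5 residual degrees of freedom, empirical Bayes (trended) and adjustment after Benjamini and Hochberg. On simulated data it recovered 4.7% of 2-fold and 39.6% of 4-fold differences, with 3 false calls on average. A gene that did not pass can therefore still differ. The p-values of the test measure only the spread between these arrays. Summaries used Python 3.11.15 and pandas 2.3.3.

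The genes named were the mutated genes and nduf-2.2, the 12 highest and 12 lowest differences among genes reaching the median level of 7.56, the 8 per direction farthest from both other missense mutants, up to 10 limma calls per direction (or the 5 smallest p), and up to 4 members of each list that reach that level; others are named as chosen after their values were seen. Of 57 lists, 55 had at least 4 measured members. Comparisons, lists and members were chosen with earlier results of these data known. Alternatives changed the normalization, filter, probe-set rule, control, threshold and arrays fitted.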

Additional observations from a re-analysis of the deposited data

Results flagged for a closer look

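Most values given here were listed because gas-1 differed from the other missense mutants in the limma test, which compares gas-1 with the mean of mev-1 and isp-1. On the log2 scale these differences were 4.97 for scl-24, 3.04 for Y39D8A.1, 2.86 for Y7A5A.3, 1.65 for T24A6.7 and -3.61 for T28A11.2. The next genes passed the filter only through the arrays where they were high, so they had to differ, and their values are a description: 4.21 for gst-14, 2.27 for clec-43, 2.06 for ugt-27, 1.78 for F58E2.2, 1.69 for twk-45, 1.46 for pgp-8 and -1.92 for T28A11.18. Y47H9C.1, at 5.22, and scl-24 were the 2 called genes that reached the median level. The mean of mev-1 and isp-1 lay under 3 for 16 of the 18 genes called higher in gas-1.

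The other values were listed because gas-1 stood on 1 side of the K12 wild type and both other missense mutants on the opposite side, each by at least 0.1. That difference was not tested for them as a group, and none of the following passed the limma test. Above the wild type in gas-1 stood oac-39 (2.75), spp-11 (2.24), F21C10.9 (2.18), gst-21 (2.86), scl-11 (1.67), fbxa-163 (1.06) and acs-2 (0.77). scl-11, a secreted SCP-like protein, was at 8.57 in the wild type, 10.24 in gas-1, 2.76 for mev-1 and 6.44 for isp-1, and at 3.61 in the HT115 wild type. fbxa-163, an F-box protein, was at 6.70, 7.76, 5.09 and 6.31 in the K12 arrays. Below the wild type stood T11B7.5 (-1.09), irg-3 (-0.81), grd-10 (-0.75) and T20D4.11 (-0.69). Of the gene lists, the metallothioneins and cdr family had a median of -0.12 in gas-1 and medians above 0 in mev-1 and isp-1, and this difference was not tested. Its members were split, with cdr-2 and cdr-4 far above the wild type in gas-1.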

How the results depend on the processing

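The counts of 988 higher and 1199 lower genes stayed within 1.5 times of these values with the deposited values, with normalization over the 4 K12 arrays, without a filter, with the mean of a gene's probe sets, with probe sets counted singly and with the mean of both wild types as control. They were 569 and 766 with the filter at the 50th percentile and 457 and 356 at 2-fold. The limma count of 18 higher and 2 lower genes was 109 and 10 without a filter, 0 and 0 with the filter at the 50th percentile (215 genes at an unadjusted p of 0.05), and 0 and 0 with only the 4 K12 arrays (567 at an unadjusted p of 0.05). It was 10 and 0 when both sides had to exceed the filter level, and 10 and 1 when the filter left out the arrays where a gene was high, both alternatives added after seeing the data. Leaving out 1 array at a time gave 15 to 48 higher and 2 to 43 lower genes, with both upper ends without isp-1. The cause of these shifts was not tested, beyond the smaller number of arrays or genes. The unadjusted counts were out of 8436 genes at the 50th percentile and out of 12641 with the 4 K12 arrays.

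The control mattered most for the lists and genes. With the mean of both wild types as control, 42 of 55 list medians and 203 of 255 named genes moved by no more than the pooled SD between the RNAi arrays and between mev-1 and isp-1. Of list medians at least 0.1 and genes at least 1.5-fold from the wild type, those that turned sign were trehalose and glycogen (0.0557), the body-shape collagens (0.31), the neuron list (0.14), grd-10 (0.30), grl-20 (0.81) and grl-23 (0.27). Without a filter the metallothionein and cdr median was 0.0041, and with the filter at the 50th percentile the median of the epidermal antimicrobial peptides was -0.0852. The other settings turned no sign among these. No paired analysis was possible because no group holds replicate numbers shared with another in the labels, each array being 1 strain or feeding. No measure of signal over background was used, and a single pooled array on each side limits every value.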

Other observations

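Genes at least 1.5-fold higher in gas-1 were not spread evenly over the genome. On chromosome V they made up 12.8% of 2539 measured genes, against 5.50% to 7.59% on the other chromosomes. Genes at least 1.5-fold lower were most frequent on the X chromosome, at 14.4% of 1843 genes, and the median difference there was -0.08. The other missense mutants, compared with the same wild-type array, also had their highest share of higher genes on chromosome V (10.8% for isp-1). Lower genes were most frequent on X for mev-1, and on V for isp-1, at 9.33%.

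Higher genes also lay next to each other. Of the 988 higher genes, 250 (25.3%) had a higher gene as an adjacent measured gene, against 13.8% of the other genes. For the 1199 lower genes this number was 316 (26.4%), against 16.9%. Tandem families with similar probe sequences can lie side by side, and their part in this was not tested.

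The share of genes at least 1.5-fold away depended on their level. Over 4 equal bins of mean level, 6.96%, 12.9%, 6.65% and 4.78% were higher in gas-1 and 9.21%, 14.4%, 8.1% and 6.20% lower, from the dimmest bin to the brightest.

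Among gene groups not described above, the F-box proteins had 19 of 174 genes (10.9%) at least 1.5-fold higher and 22 lower, near the 7.82% and 9.49% of all genes, with a median of -0.02. fbxa-107 was at 5.81 in the wild type, 7.98 in gas-1, 6.97 for mev-1 and 8.09 for isp-1, and fbxc-58 at 6.40, 8.23, 6.94 and 6.62. Of the intestinal aspartyl and cysteine proteases, 5 of 19 (26.3%) were higher and 5 (26.3%) lower at 1.5-fold, against 7.82% and 9.49% of all genes. Among them cpr-2 was at 2.70 in gas-1, 5.31 for mev-1 and -2.35 for isp-1, and cpr-4 at -1.25, -1.49 and -0.81. far-3, a fatty acid and retinol binding protein, was at 4.98 in the wild type, 9.31 in gas-1, 7.66 in mev-1, 8.7 in isp-1 and 8.47 in the HT115 wild type, so the K12 wild type alone was low. mps-2 was at -0.85 in gas-1, -0.83 for mev-1 and -0.77 for isp-1, and all 3 were below the 5 RNAi arrays and both wild types.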
